A study of Drosophila melanogaster with 2 samples.

Results

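The peaks described here lay between, or beside, the transcription start sites (TSSs) of 2 neighbouring protein-coding genes that are transcribed away from each other. Of the 7157 peaks in the authors' conservative set on the main chromosome arms, 653 (9.12%, 95% Wilson interval 8.48 to 9.81%) had a summit within 500 bp of the TSSs of at least 2 different protein-coding genes on opposite strands, with a minus-strand TSS to the left of a plus-strand TSS and at most 1000 bp between them. They made up 23.0% of the 2839 peaks with a summit within 500 bp of any protein-coding TSS. They are called divergent-promoter peaks below, and are set beside 2127 single-gene promoter peaks, whose summits had TSSs of only 1 protein-coding gene within 500 bp. The remaining 59 promoter peaks were near several genes in other arrangements, and 4318 distal peaks had no protein-coding TSS within 500 bp.

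The data are ChIP-seq of whole Drosophila melanogaster pupae aged 2 days, in 2 biological replicates of 1 group. The animals carried a transgene for Ets98B fused to eGFP, a green fluorescent protein, and chromatin sheared by sonication to 200 to 800 bp was recovered with an anti-GFP antibody. The pupae were whole organisms of unrecorded sex, so that cells binding the factor and cells without it were measured together, and no control sample or untagged strain was analysed here. Each peak carries a signal value from the authors' peak caller, on a scale that the sources used here do not state. Read depth was unknown, since the peak lists hold no read counts, and Wilson intervals cover counting error only. Because the design has 1 group, no condition was compared, and the values below are descriptions with their intervals and, where each replicate's own list gave one, the spread over both replicates.

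Genes arranged head to head are common in the compact fly genome, and many of them are housekeeping genes with functions that every cell needs. The stretch between the start sites carries core promoter and regulatory sequence for both genes, so that a factor bound there cannot be assigned to either gene from its position alone. Ets98B belongs to the ETS family of transcription factors, whose DNA-binding domain typically recognises sites built around a GGAA or GGAT core. Promoters of fly housekeeping genes often hold words bound by the factors DREF, BEAF-32 and M1BP, whereas GAGA factor binds repeated GA sequence at many developmentally regulated promoters.

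The sequences below reach 100 bp to each side of the summit of 7 divergent-promoter peaks and were read from the Release 6 reference assembly, the dm6 build of the peak lists. All are written 5′ to 3′ on the plus strand, so the minus-strand TSS lies to the left of the plus-strand TSS. At Ripalpha and RpL7 both TSSs lie to the left of the summit, which is at the centre of the window. Capitals mark, on either strand, the ETS cores GGAA and GGAT, the DREF word TATCGATA, the BEAF-32 word CGATA, the M1BP word GGTCACAC and the Ohler 7 core promoter word CANCNCTA, in which N is any base. The first 4 are the divergent-promoter peaks with the highest signal. No peak among the 20 strongest held a DREF or M1BP word, so the other 3 were chosen after values were seen, as the strongest on the arms shown with a DREF word, with an M1BP word, and with a further DREF word beside an Ohler 7 word, all within 50 bp of the summit. A stronger peak with a DREF word, between RpL41 and NaCP60E with a signal of 295, was on another arm, and its sequence is not shown.
mRpS23 and CenG1A, chr2L:13835362-13835562: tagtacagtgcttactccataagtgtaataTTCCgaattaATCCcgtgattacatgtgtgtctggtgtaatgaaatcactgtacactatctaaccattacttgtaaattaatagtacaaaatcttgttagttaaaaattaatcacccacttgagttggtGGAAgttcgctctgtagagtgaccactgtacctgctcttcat
Tcs5 and CHMP2B, chr3L:5139396-5139596: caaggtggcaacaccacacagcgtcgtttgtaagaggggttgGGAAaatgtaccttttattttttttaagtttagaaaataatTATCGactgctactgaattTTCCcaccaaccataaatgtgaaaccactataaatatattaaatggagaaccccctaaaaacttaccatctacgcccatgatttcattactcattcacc
CG7601 and CIA30, chr3R:29736739-29736939: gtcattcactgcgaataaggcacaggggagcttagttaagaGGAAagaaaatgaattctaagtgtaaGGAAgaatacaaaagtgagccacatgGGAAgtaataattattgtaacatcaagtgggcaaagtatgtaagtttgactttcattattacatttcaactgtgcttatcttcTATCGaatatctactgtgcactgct
CG3437 and CG3552, chr3L:9457698-9457898: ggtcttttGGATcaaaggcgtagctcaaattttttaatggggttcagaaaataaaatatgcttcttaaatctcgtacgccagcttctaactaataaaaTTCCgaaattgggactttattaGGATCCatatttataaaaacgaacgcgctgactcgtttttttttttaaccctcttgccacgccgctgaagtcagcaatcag
Su(P) and CG4101, chr3L:16612304-16612504: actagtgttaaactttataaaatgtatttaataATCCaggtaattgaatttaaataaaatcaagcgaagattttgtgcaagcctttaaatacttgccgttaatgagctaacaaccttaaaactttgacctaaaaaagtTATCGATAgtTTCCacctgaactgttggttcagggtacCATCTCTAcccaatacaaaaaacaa
Ripalpha and RpL7, chr2L:10200938-10201138: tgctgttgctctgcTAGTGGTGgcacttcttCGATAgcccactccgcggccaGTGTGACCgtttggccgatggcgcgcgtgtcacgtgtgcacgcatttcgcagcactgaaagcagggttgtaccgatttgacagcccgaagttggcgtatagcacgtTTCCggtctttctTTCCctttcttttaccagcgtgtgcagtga
Cht11 and CG4558, chrX:6849621-6849821: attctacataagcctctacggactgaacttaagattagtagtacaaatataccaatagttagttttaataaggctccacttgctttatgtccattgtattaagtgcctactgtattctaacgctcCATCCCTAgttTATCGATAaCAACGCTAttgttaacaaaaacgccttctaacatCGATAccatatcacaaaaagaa

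The windows of the 4 strongest peaks were AT-rich, and their longest runs made only of A and T were 12, 16, 11 and 13 bases in the order shown, against 5 bases in the window of Ripalpha and RpL7. AT-rich windows were also found at weaker peaks. The window of Su(P) and CG4101 had a run of 14 bases and a GC content of 30.8%, and that of Cht11 and CG4558 had 9 bases and 34.3%. The window of mRpS23 and CenG1A had a GC content of 35.8% over its whole length and held 2 GGAA cores and 1 GGAT core, none of them within 50 bp of the summit. The window of Ripalpha and RpL7 had 55.7% and held an M1BP word. In the window of Su(P) and CG4101, a DREF word and an Ohler 7 word lay toward the plus-strand TSS rather than at the summit.

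The strongest divergent-promoter peaks lay beside genes of varied function. The peak at chr2L:13835303-13835656 had the highest signal, 2171, with 1057 in replicate 1 and 1121 in replicate 2, and lay between mRpS23, which encodes a protein of the small mitochondrial ribosomal subunit, and CenG1A, which encodes a GTPase-activating protein for Arf proteins. The peak at chr3L:5139330-5139664 had a signal of 1972, with 1106 in replicate 1 and 863 in replicate 2. It lay between the TSS of Tcs5, a kinase of the complex that makes a modified base of transfer RNAs, and the TSS of CHMP2B, a subunit of the ESCRT-III membrane remodelling complex. The peak at chr3R:29736683-29737014 had 1940, with 1054 in replicate 1 and 939 in replicate 2, between CG7601 and CIA30, an assembly factor of respiratory complex I. These 3 peaks were 5th, 7th and 8th in signal among all 7157 peaks.

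The peak at chr3L:9457631-9457963, between CG3437 and CG3552, had a signal of 1681, with 900 in replicate 1 and 773 in replicate 2. The peak between Art3, an arginine methyltransferase gene, and mRpS10 had 1629, with 875 in replicate 1 and 771 in replicate 2. In both of these peaks replicate 1 was the higher of the replicates.

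Further gene pairs among the 20 strongest peaks included tank and CG12194, fws and Lamtor3, CG1275 and Elp5, Chro and Ssl1, Pex11ab and CG8320, mRpL23 and CG9004, CG13390 and CG17294, Fbw5 and CG9147, Mnat9 and CG1792, CG8372 and CG8360, CG11309 and CG7632, CG4741 and Adck1, Mkk4 and SLIRP2, and Atat and Shc. Their products include a subunit of the Golgi tethering complex COG (fws), a Ragulator subunit (Lamtor3), an Elongator subunit (Elp5), a TFIIH subunit (Ssl1), the interband chromatin protein Chromator (Chro), a peroxisome protein (Pex11ab), a MAP kinase kinase (Mkk4), a tubulin acetyltransferase (Atat) and a receptor tyrosine kinase adaptor (Shc). Over all 20 peaks the signal ranged from 880 to 2171, replicate 1 from 457 to 1106 and replicate 2 from 401 to 1121. Replicate 1 was higher than replicate 2 in 14 of the 20. The summits of 12 of the 20 lay between the TSSs, and their GC content ran from 20.8 to 38.6% with a median of 28.2%. A GGAA core lay within 50 bp of the summit in 11 of the 20, a GGAT core in 5 and a BEAF-32 word in 4, and none of them held a GAGA, Ohler 7, DREF or M1BP word there.

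Divergent-promoter peaks were spread over the large arms and over the whole range of signal. Arm 3R held 173, arm 3L 145, arm 2L 134, arm 2R 127 and the X chromosome 74. Of the 20 strongest peaks of the whole set 6 were at divergent promoters, of the 100 strongest 17, and of the 500 strongest 57 (11.4%), against 9.12% of all 7157 peaks. The rule was also applied to each replicate's own thresholded list. It found 596 of 5850 peaks (10.2%) in replicate 1 and 647 of 7963 (8.13%) in replicate 2, so the share averaged 9.16 ± 1.46% (SD, n = 2). Single-gene promoter peaks made up 26.1% of the list of replicate 1 and 33.6% of that of replicate 2, so the share of divergent-promoter peaks was higher in replicate 1 and that of single-gene promoter peaks was higher in replicate 2. Of the divergent-promoter peaks in these lists, 77 of replicate 1 (12.9%) and 92 of replicate 2 (14.2%) overlapped no conservative peak, and their median signals were 50.1 in replicate 1 and 47.8 in replicate 2.

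The summits lay mostly between the start sites. For each peak the pair of TSSs with the smallest summed distance to the summit was used. By this measure 494 of 653 summits (75.7%, interval 72.2 to 78.8%) lay between the TSSs, 81 lay beyond the TSS of the minus-strand gene and 78 beyond that of the plus-strand gene. The definition itself places every summit between TSSs that are over 500 bp apart, which applied to 54 peaks. With the definition limited to gaps of at most 500 bp, 72.7% of 605 summits lay between. With any qualifying pair of TSSs of the same peak, 550 summits lay between. The TSSs of a pair were a median of 278 bp apart (quartiles 204 and 378 bp), and the summit was a median of 83.0 bp from the nearer TSS and 206 bp from the farther one. The summits lay about equally near to either gene, with 316 nearer the minus-strand TSS, 336 nearer the plus-strand TSS and 1 equally near to both.

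Position went together with the gap between the genes and with signal. Where the TSSs were over 200 and up to 300 bp apart, 180 of 214 summits (84.1%) lay between them and 121 (56.5%) were within 50 bp of the midpoint. Where they were at most 100 bp apart, 23 of 85 summits (27.1%) lay between and 37 (43.5%) were within 50 bp of the midpoint. A narrow gap leaves little room between the TSSs, so the share between them depends on the gap itself. From the lowest to the highest quartile of signal, the share of summits within 50 bp of a TSS was 43.9%, 36.8%, 25.8% and 13.5%, and the median distance from the midpoint was 117, 71.0, 61.5 and 56.0 bp. The 159 summits outside the TSSs had a median signal of 117 and a GC content of 41.6%, and the 494 summits between them had 148 and 30.7%. Signal itself was nearly unrelated to the gap (Spearman rank correlation -0.03 over 653 peaks that share the same pair of libraries).

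**Figure D1:**
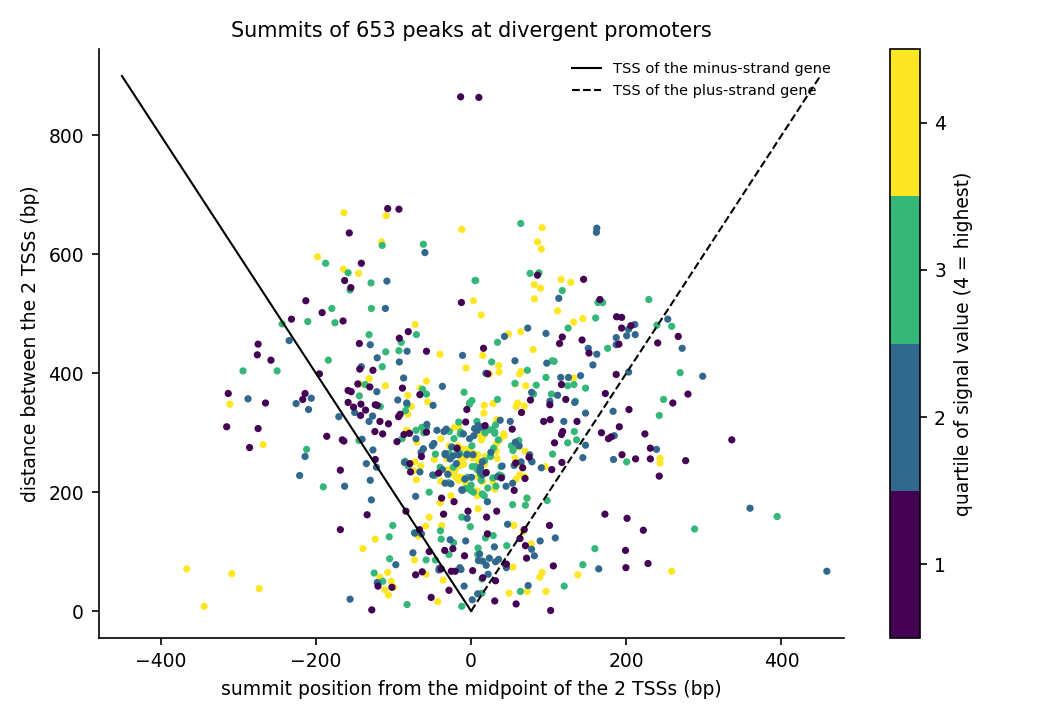
Each point is 1 of 653 divergent-promoter peaks, placed by its summit relative to the midpoint of its 2 TSSs (x, bp) and by the distance between these TSSs (y, bp), with colour for its quartile of signal. The lines mark the TSSs of the minus-strand and plus-strand genes. Most points, 494, fall between the lines, and they are densest near the midpoint at gaps over 200 and up to 300 bp.

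Pairs of divergent genes with a gap over 200 and up to 400 bp held a peak most often. The annotation has 2667 pairs of protein-coding genes with at least 1 qualifying pair of TSSs, and 681 of them (25.5%, interval 23.9 to 27.2%) held a divergent-promoter peak. By the smallest gap of a pair, the share was 28.4% of 429 pairs with a gap up to 100 bp, 24.4% of 357 with one up to 200 bp, 41.1% of 542 with one up to 300 bp (interval 37.1 to 45.3%), 34.5% of 400 with one up to 400 bp and 25.5% of 267 with one up to 500 bp. With a gap over 500 bp it was 6.40% of 672 pairs, where the rule leaves only a narrow strip around the midpoint that is within 500 bp of both TSSs. Counting any summit that lay between the TSSs, whatever its distance, gave 22.3% of the pairs with a gap over 500 bp, against 34.3% in the class up to 300 bp and 5.83% in that up to 100 bp. The space counted in this way grows with the gap. In windows of equal width, a summit lay within 250 bp of the midpoint in 13.8% of the pairs with a gap over 500 bp. The same measure gave 40.0% in the class up to 300 bp and 22.6% in that up to 100 bp.

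In both replicates the class up to 300 bp had the highest share and the class over 500 bp the lowest. With each replicate's own peaks, pairs in the class up to 300 bp held one in 36.9% of cases for replicate 1 and 38.7% for replicate 2 (mean 37.8 ± 1.30%, SD over 2 replicates), and pairs with a gap over 500 bp in 7.44% for replicate 1 and 6.10% for replicate 2. The classes up to 200 bp and up to 500 bp changed places, with 22.1% and 24.7% in replicate 1 and 26.3% and 23.2% in replicate 2. The share of pairs with a peak was 29.7% on arm 3L, 27.8% on 3R, 25.5% on 2L, 23.9% on 2R and 19.1% on the X chromosome, whose interval of 15.6 to 23.2% lay below the share of all pairs. None of the 11 pairs on chromosome 4 held one (interval 0 to 25.9%). In the class up to 300 bp the midpoints of pairs that held a peak had a median GC content of 24.8%, and those of pairs that held none had 27.7%.

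**Figure D2:**
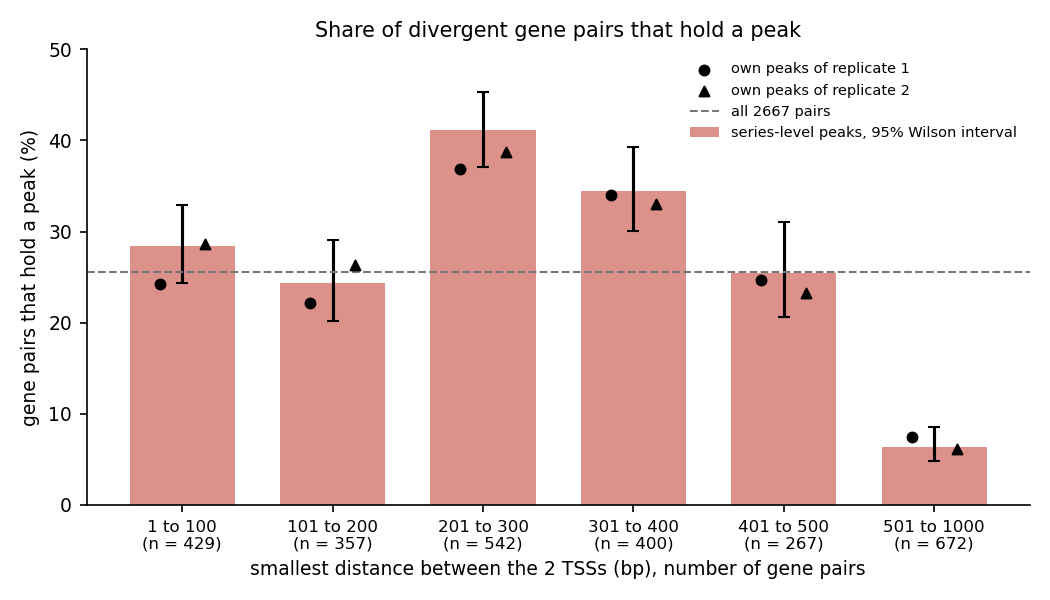
Bars give the share of divergent gene pairs (y, %) that hold a series-level peak, by the smallest distance between the TSSs (x, bp), with 95% Wilson intervals; circles and triangles give the same share from the own peaks of replicates 1 and 2. The bar for gaps over 200 and up to 300 bp, 41.1%, is the highest and that for gaps over 500 bp, 6.40%, the lowest.

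The genes of divergent pairs had a peak at a start site more often than other genes, and the difference was widest for genes with 1 TSS. Of all 13968 protein-coding genes on the main arms, 21.4% had a conservative summit within 500 bp of a TSS. The share was 1638 of 5052 (32.4%, interval 31.1 to 33.7%) for genes in a divergent pair and 1357 of 8916 (15.2%, interval 14.5 to 16.0%) for genes in none. A summit between close neighbours counts for both genes, and genes with more start sites have more windows. Among genes with 1 TSS the share was 27.0% in divergent pairs and 9.47% outside them, among genes with 2 TSSs 38.4% and 25.4%, among those with 3 to 4 TSSs 54.9% and 49.6%, and among those with 5 or more 75% and 63.6%. The 681 pairs with a divergent-promoter peak involved 1289 different genes. Exactly 2 genes lay in the window of 621 of the 653 peaks, 3 genes in that of 28 and more in that of 4, and 12 peaks also had a non-coding TSS within 500 bp.

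Cytosolic ribosomal protein and autophagy genes were often in a pair with a peak, and chemoreceptor genes seldom were. Groups were formed from gene symbols, and each share is read against the 25.5% of all 5052 paired genes whose pair held a peak. The intervals of the first 2 groups lay above this share and that of the chemoreceptors below it, and the intervals of all other groups included it. In all 22 groups were read, with no allowance for their number, and the autophagy group had only 16 paired genes. Of 85 cytosolic ribosomal protein genes 52 were in a divergent pair, and 26 of these (50%, interval 36.9 to 63.1%) were in a pair with a peak. Replicate 1 alone gave 21 and replicate 2 alone gave 24 of the 52 (43.3 ± 4.08%, SD, n = 2). The strongest of their peaks were at RpL34b, with 210 in replicate 1 and 206 in replicate 2, at RpL32, with 168 and 188 in replicates 1 and 2, and at RpL7, with 177 and 163. The peaks of these ribosomal protein genes had a median signal of 130, against 138 for all divergent-promoter peaks. Outside divergent pairs, 15 of 33 ribosomal protein genes (45.5%) had a peak at a TSS, against 15.2% of all unpaired genes.

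Autophagy genes, with Atg symbols, had 8 of 16 paired genes in a pair with a peak (50%, interval 28.0 to 72.0%), and each replicate alone gave 7. The strongest was at Atg2, which encodes a lipid transfer protein of autophagosome growth, with 142 in replicate 1 and 165 in replicate 2, followed by Atg7 with 172 and 124 in replicates 1 and 2. Peroxisome genes, with Pex symbols, had 6 of 12 (50%, interval 25.4 to 74.6%), led by Pex11ab with 812 in replicate 1 and 591 in replicate 2. Mediator genes had 8 of 19 (42.1%, interval 23.1 to 63.7%), with 6 in replicate 1 alone and 10 in replicate 2 alone. The strongest of them was at MED30, with 184 in replicate 1 and 209 in replicate 2. Aminoacyl-tRNA synthetase genes had 9 of 23 (39.1%, interval 22.2 to 59.2%), led by GluProRS, with 8 in replicate 1 alone and 6 in replicate 2 alone.

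Mitochondrial ribosomal protein genes had 18 of 58 paired genes in a pair with a peak (31.0%, interval 20.6 to 43.8%), close to that of all paired genes, although they included 3 of the 20 strongest peaks, at mRpS23, mRpS10 and mRpL23. None of the 15 unpaired mitochondrial ribosomal protein genes had a peak at a TSS. Genes of oxidative phosphorylation had 13 of 44 (29.5%), led by ND-ASHI of complex I with 406 in replicate 1 and 340 in replicate 2, and only 1 of 44 unpaired genes of this group had a peak. Genes of endosomal sorting, most with Vps or CHMP symbols, had 6 of 21 (28.6%), Rab GTPases 5 of 18 (27.8%), RNA polymerase subunits 5 of 19 (26.3%), exosome subunits 2 of 8 (25%), proteasome subunits 6 of 26 (23.1%) and nucleoporins 4 of 18 (22.2%). Below these were TFIID subunits with 2 of 12, translation initiation factors with 3 of 21, chaperonin and heat shock genes with 2 of 14, replication genes with 1 of 8 and spliceosome genes with 2 of 19 (10.5%, interval 2.94 to 31.4%). Mitochondrial import genes had 2 of 5 and COP9 signalosome genes 0 of 5, numbers too small to place. Of 179 odorant, gustatory and ionotropic receptor genes 26 were in a divergent pair, and 1 of these, Ir60e, was in a pair with a peak (3.85%, interval 0.682 to 18.9%). Of 70 cuticle protein genes of the Cpr series 4 were in a divergent pair, and none of these was in a pair with a peak (interval 0 to 49.0%), again a number too small to place.

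Divergent-promoter peaks were found in the lists of both replicates more evenly than single-gene promoter peaks. A thresholded peak of replicate 1 overlapped 527 of 653 (80.7%), against 73.0% of all conservative peaks, and one of replicate 2 overlapped 552 (84.5%), against 83.6%. Among single-gene promoter peaks 67.2% were overlapped in replicate 1 and 87.6% in replicate 2. Both replicates overlapped 460 divergent-promoter peaks (70.4%, interval 66.8 to 73.8%), against 61.1% of single-gene promoter peaks (interval 59.0 to 63.2%) and 64.2% of all peaks, and neither replicate overlapped 34. From the lowest to the highest quartile of signal the share in both was 31.7%, 58.9%, 91.4% and 100% of divergent-promoter peaks. The authors built the conservative set from both replicates, so these shares are no independent check of it.

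At divergent promoters the median signals of the replicates were nearly equal, and replicate 2 was the higher at most single-gene promoters. A summit within 100 bp in both replicates' ranked lists was present for 587 divergent-promoter peaks, and replicate 1 was higher than replicate 2 in 320 of them (54.5%), against 533 of 1870 single-gene promoter peaks (28.5%). The median log2 ratio of replicate 1 to replicate 2 was 0.04 at divergent promoters, with quartiles of -0.29 and 0.34. It was -0.34 at single-gene promoters, -0.09 at distal peaks and -0.14 over all peaks. The median signal in replicate 1 was 73.2 for divergent-promoter peaks and 58.3 for single-gene promoter peaks, while in replicate 2 it was 71.6 and 79.7. The order of the classes was opposite in the replicates for these matched summits of conservative peaks. Over all peaks of each replicate's own thresholded list it was not, with medians of 75.2 at divergent and 70.3 at single-gene promoters in replicate 1 and of 70.6 and 69.7 in replicate 2. At the matched summits the signals of the replicates were correlated at divergent promoters with a Spearman rank correlation of 0.79 over 587 peaks.

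Base composition moved with this difference. All peaks were put in low, middle and high classes of GC content at the summit, split at 30.7% and 41.6% into nearly equal numbers, and the median log2 ratio of replicate 1 to replicate 2 was 0.13, 0.05 and -0.29 in these classes at divergent promoters and -0.05, -0.17 and -0.66 at single-gene promoters. The GAGA word GAGAG moved with it too. The median ratio was -0.82 at single-gene promoter peaks with the word and -0.25 at those without it, and at divergent promoters it was -0.06 with the word and 0.04 without it. The part of base composition, of the GAGA word or of the libraries in the difference between replicates was not tested.

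**Figure D3:**
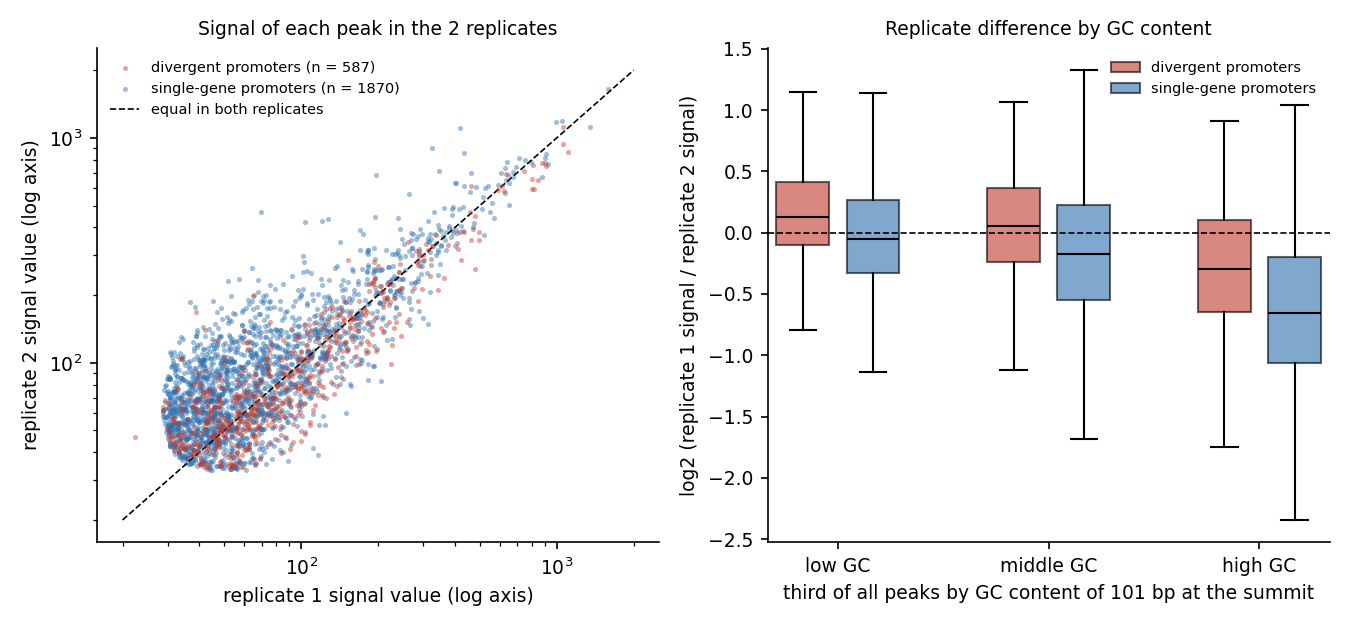
Left, each point is 1 peak with its signal in replicate 1 (x) and replicate 2 (y) on log axes, for 587 divergent-promoter and 1870 single-gene promoter peaks; the dashed line marks equality. Right, boxes give the quartiles and median of the log2 ratio of replicate 1 to replicate 2 by GC class, with whiskers to the farthest peak within 1.5 box lengths. Divergent-promoter peaks have the higher median in each class.

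The strength of divergent-promoter peaks was much like that of others. Their median signal was 138 (quartiles 97.6 and 246), against 131 for single-gene promoter peaks (94.5 and 208) and 131 for all peaks. Within the low, middle and high GC classes the medians at divergent promoters were 190, 135 and 104, and those at single-gene promoters were 199, 141 and 118, so that the order of the classes of promoter turned within each. Low-GC summits made up 42.9% of divergent-promoter peaks and 21.0% of single-gene promoter peaks, and low-GC peaks had the higher signal in both.

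In the median over all of them, summits at divergent promoters lay in a dip of GC content between GC-richer flanks. The median GC content within 50 bp of the summit was 33.7%, against 42.6% at single-gene promoters and 35.6% over all peaks. In each replicate's own list it was 32.2% at divergent promoters and 38.6% at single-gene promoters in replicate 1, and 34.7% and 46.0% in replicate 2. In windows centred 500 bp to the left and right of divergent-promoter summits the median was 51.5% and 50.5%, while single-gene promoter peaks had 41.6% on either side and 42.6% at the summit. By the definition both TSSs lay within 500 bp of a divergent-promoter summit. The flanks of divergent-promoter peaks were therefore centred past the start sites, in the direction of transcription. Flanks of the other classes were not ordered by strand, so the flanks of the classes are not alike in kind. Distal peaks had a dip as well, to 33.7% at the summit between 45.5% at 200 bp to either side, where divergent-promoter peaks had 40.6% on the left and 41.6% on the right. Farther out the profiles differed, since distal peaks had 41.6% and 40.6% at 500 bp to the left and right. The 100 divergent-promoter peaks of highest signal had 27.7% at the summit and the 100 of lowest signal had 41.6%. The 100 of lowest signal showed no local dip, with 41.6% at 100 bp to the left and 40.6% at 100 bp to the right. Signal and GC content were inversely related, with a Spearman rank correlation of -0.41 over 653 divergent-promoter peaks and -0.30 over 2127 single-gene promoter peaks, which share the same libraries and peak calling.

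**Figure D4:**
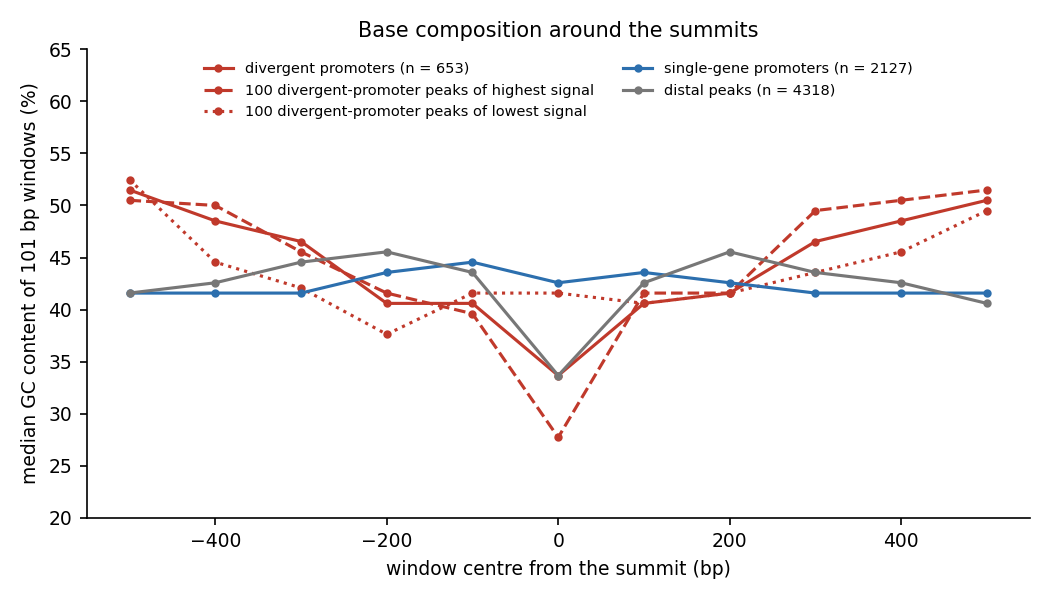
Lines give the median GC content of windows reaching 50 bp to each side of their centre (y, %) by the distance of that centre from the summit (x, bp) for divergent-promoter peaks, their 100 strongest and 100 weakest, single-gene promoter peaks and distal peaks. The divergent-promoter line falls to 33.7% at the summit between flanks near 51%, and the line of the 100 strongest falls to 27.7%.

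ETS cores were no more frequent at divergent-promoter summits than at other promoter summits, and were rarer there than in the flanks. Words were searched on either strand within 50 bp to each side of the summit. GGAA was present in 331 of 653 windows (50.7%, interval 46.9 to 54.5%), against 50.4% at single-gene promoters and 49.1% over all peaks, and windows centred 500 bp to each side held it in 62.8% on average. GGAT was present in 28.9%, against 31.9% at single-gene promoters, 30.9% over all peaks and 53.6% in the flanks. These flanks, used for all words below, were also richer in GC. By the definition they were centred past the start sites, in the direction of transcription. The longer ETS word CCGGAA was present in 16 windows (2.45%), against 2.07% at single-gene promoters. From these letters nothing follows about where the factor contacts DNA.

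The DREF, BEAF-32 and Ohler 7 words were more frequent, and GAGA words less frequent, at divergent-promoter summits than at single-gene promoter summits. The DREF word TATCGATA was in 30 windows (4.59%, interval 3.24 to 6.48%), against 1.41% at single-gene promoters (interval 0.990 to 2.01%), 0.908% of all peaks and 0.383% of the flanks. Flanks centred at 300 bp held it more often, and the summit share was 3.75 times theirs, against 12 times that of the flanks at 500 bp. The word was not concentrated on the summit itself, with 0.390 matches per kb within 25 bp of it, 0.582 at 26 to 75 bp, 0.643 at 76 to 150 bp and 0.214 beyond that, up to 300 bp. With each replicate's own peaks it was in 4.28 ± 0.59% at divergent promoters and 1.48 ± 0.41% at single-gene promoters (SD, n = 2). The BEAF-32 word CGATA, which the DREF word contains, was in 160 windows (24.5%, interval 21.4 to 27.9%), against 15.2% at single-gene promoters and 12.8% of all peaks. With each replicate's own peaks it was in 23.7 ± 0.24% at divergent promoters and 14.9 ± 1.43% at single-gene promoters. The Ohler 7 word CANCNCTA was in 58 windows (8.88%), against 5.17% at single-gene promoters and 3.83% of all peaks, and the M1BP word GGTCACAC in 14 (2.14%), against 1.13% and 0.657%. The interval of the M1BP word, 1.28 to 3.57%, overlapped that of single-gene promoters. Its summit share was 5.6 times that of the flanks at 500 bp and 1.17 times that of flanks at 300 bp. The Ohler 6 word GGTATTTT was in 1.53%, against 1.08% at single-gene promoters. Replicate 1 alone gave 0.168% and 0.917%, and replicate 2 alone gave 2.16% and 1.01%. The E-box word CAGCTG was in 6.58%, against 6.21%. The order turned in replicate 1 alone, with 5.37% and 5.57%, and replicate 2 alone gave 6.34% and 6.35%.

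GAGAG was in 62 divergent-promoter windows (9.49%, interval 7.48 to 11.99%), against 22.2% at single-gene promoters (interval 20.5 to 24.0%), 16.6% of all peaks and 12.6% of the flanks. Replicate 1 alone gave 6.71% at divergent promoters and 18.3% at single-gene promoters, and replicate 2 alone gave 9.58% and 26.5%. The initiator word TCAGT was in 14.7%, against 21.1% at single-gene promoters. The GATA word GATAA, which can overlap the BEAF-32 word, was in 25.4%, against 17.02%, and the TATA word TATAAAA in 9.65%, against 6.39%.

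The shares varied with base composition. In the low, middle and high GC classes GAGAG was in 5.36%, 7.11% and 18.8% of divergent-promoter windows and in 6.05%, 13.1% and 33.5% of single-gene promoter windows, so the low class hardly differed. The DREF word was in 1.79%, 4.06% and 9.66% of divergent-promoter windows and in 0.448%, 2.25% and 1.36% of single-gene promoter windows. The BEAF-32 word was in 16.1%, 31.0% and 30.7%, against 12.3%, 18.0% and 14.9%. The TATA word was in 16.4%, 6.09% and 2.84%, against 18.4%, 5.71% and 1.90%, so that its higher overall share at divergent promoters did not hold in the low class. The GATA word was in 23.9%, 28.9% and 23.9%, against 22.4%, 22.3% and 12.1%, so the low class hardly differed. The initiator word was in 13.2%, 15.7% and 15.9%, against 15.7%, 19.7% and 23.9%, with the smallest difference in the low class.

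DREF, BEAF-32 and Ohler 7 words were rarer in the highest quartile of signal than in the other quartiles, which were much alike. Of these words, DREF and BEAF-32 but not Ohler 7 had the higher share at midpoints of pairs without a peak. From the lowest to the highest quartile of signal the DREF word was in 9, 11, 9 and 1 peaks, the Ohler 7 word in 20, 19, 16 and 3, and the BEAF-32 word in 28.7%, 30.1%, 27.6% and 11.7%. The median GC content of these quartiles was 41.6%, 35.6%, 30.7% and 27.7%, and its part in the word shares was not tested. The median signal was 110 with the DREF word and 140 without it. At the midpoints of divergent gene pairs, the DREF word was in 3.67% of 681 pairs that held a peak and 5.29% of 1986 pairs that held none, with overlapping intervals of 2.50 to 5.36% and 4.39 to 6.36%. The BEAF-32 word was in 19.8% of the pairs that held a peak and in 24.9% of those that held none (intervals 17 to 22.98% and 23.02 to 26.8%). For the Ohler 7 word the shares were 7.93% and 6.09%, with overlapping intervals of 6.13 to 10.2% and 5.12 to 7.23%. GAGAG was in 7.49% and 7.75% of these midpoints. The GATA word was in 23.2% and 29.5% (intervals 20.2 to 26.5% and 27.5 to 31.6%), and GGAA in 43.6% and 48.2%. Besides Ohler 7, only the Ohler 6 word (2.35% and 2.11%) and CAGCTG (7.34% and 6.55%) had the higher share in pairs that held a peak. Those pairs had a median gap of 259 bp and a median midpoint GC content of 29.7%. Pairs that held none had 333 bp and 32.7%. The part of gap and GC content in the midpoint shares was not tested.

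**Figure D5:**
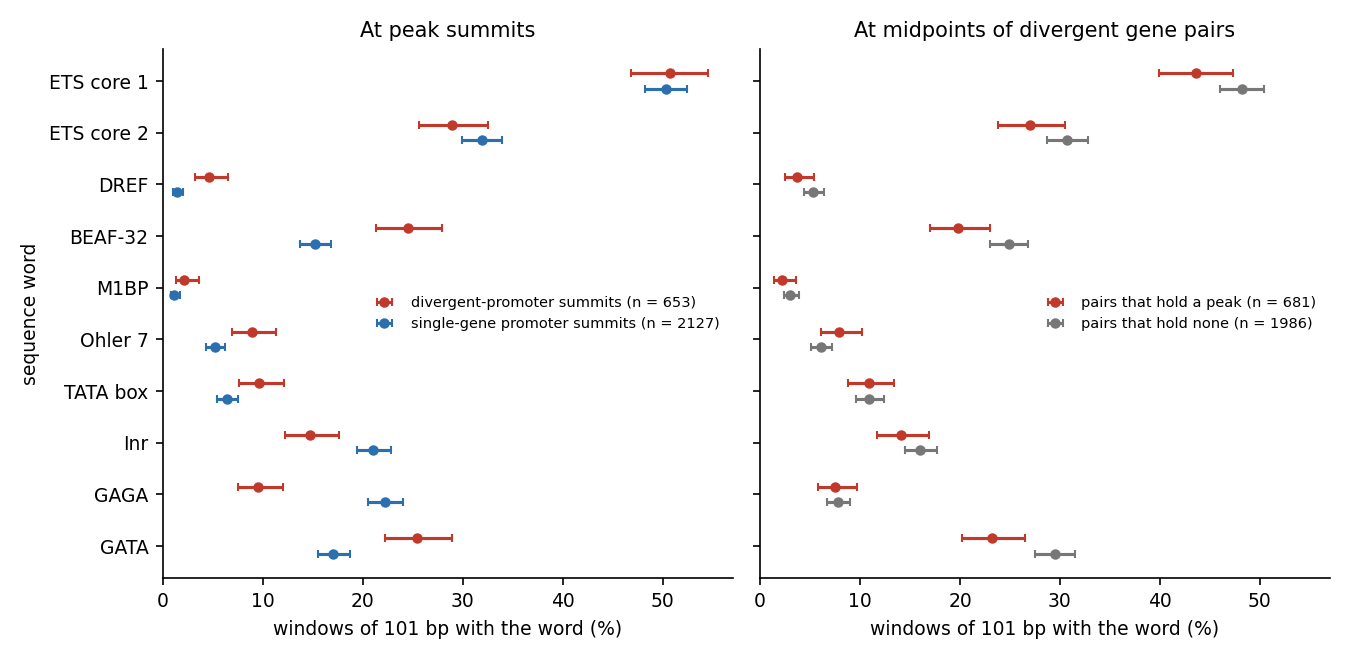
Points give the share of windows reaching 50 bp to each side of their centre (x, %) that hold each word, with 95% Wilson intervals, at summits of divergent-promoter and single-gene promoter peaks (left) and at midpoints of divergent gene pairs that hold a peak and that hold none (right). ETS core 1 and 2 are the GGAA and GGAT words. DREF, BEAF-32 and Ohler 7 words are more frequent and GAGA words less frequent at divergent-promoter summits than at single-gene promoter summits, and at the midpoints the GAGA share is 7.49% of pairs that hold a peak and 7.75% of pairs that hold none.

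Peaks near the limits of the definition varied widely in signal. Just inside the 500 bp limit, with 499 bp to the farther TSS, lay the peaks of Nepl19 and Nepl20 with a signal of 406, of CG8173 and raskol with 121 and of Lasp and Dab with 89.6. Just outside it, at 502 to 504 bp, lay those near Mis12 and CG9953 with 109, near Nab2 and BRWD3 with 91.8, and near stg, which encodes the mitotic phosphatase String, and CG45544 with 157. The largest gap between the TSSs of a divergent-promoter peak was 865 bp, at ImpE3 and CG10903. The lowest signals of all divergent-promoter peaks were 12.7 between Ino80, the ATPase of a chromatin remodelling complex, and Aptx, 12.1 beside Pex23 and SCCRO4, and 12.1 between CG5446 and Trm1, a transfer RNA methyltransferase gene. All 3 had the highest score of 1000 and overlapped a thresholded peak in both replicates, but had no summit within 100 bp in either ranked list. Each of these gene pairs also held a stronger peak, with a signal of 247 at Ino80 and Aptx, 156 at Pex23 and SCCRO4 and 129 at CG5446 and Trm1.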

How the data were processed

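Both samples are biological replicates of 1 group, numbered by the labels. Peak lists with dm6 coordinates were deposited, per the labels. Read alignment and peak calling are not described in the labels or lists used here. The authors gave ranked and thresholded lists for either replicate alone, and series-level lists that combine both, per their file lists. The deposited signal value of a peak comes from the authors' peak caller, and the deposited score is the scaled irreproducible discovery rate (IDR) score, at most 1000. In the series-level ranked lists, 16 unlabelled columns of per-list values were not used.

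From these lists, summits were placed by chromosome arm against TSSs of all transcripts of Ensembl release 115 (BDGP 6.54), whose coordinates are those of dm6, and sequence was read from the Release 6 reference assembly. Peaks of the series-level list were the main set, and each replicate's thresholded list was classified in the same way for means ± SD. Replicate signals are those of a ranked-list summit within 100 bp, and lists were overlapped by at least 1 bp. Shares carry 95% Wilson intervals. No test over regions was made. The classification and the word search were tested on simulated data with known answers. Python 3.11.15, pandas 2.3.3, numpy 2.4.6, SciPy 1.17.1 and matplotlib 3.10.9 were used.

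The named peaks are the 20 of highest signal with a summit in both ranked lists, the 3 of lowest signal, those next to the limits of the definition, up to 3 of highest signal per gene group, and gene pairs with several peaks. One of the 20 strongest is counted in the summaries but not reported singly here. Gene groups were formed from symbol patterns. Rab3GAP genes and Rrp1 were left out of the Rab and exosome groups because their products have other functions. The peak set, words and gene groups were chosen with earlier results of these data known. No read totals were used, so the depth of each sample is unknown.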

Additional observations from a re-analysis of the deposited data

How the results depend on the processing

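Divergent-promoter peaks made up 5.37% of the peaks with the TSS window at 250 bp and 13.5% with it at 1000 bp, and 8.44% with the other series-level list, 9.92% with the stronger peaks alone and 8.45% with a gap of at most 500 bp. Each replicate alone gave 8.13 to 10.2%, the values from which the SD was computed. The ratio of median signal, divergent over single-gene promoters, was 1.05, and it was 1.10 with the other list, 1.25 and 0.957 with windows of 250 and 1000 bp, 1.13 for summits between the TSSs, and 1.01 to 1.07 with 1 replicate left out. In the low, middle and high GC classes, an alternative chosen after seeing the data, it was 0.956, 0.955 and 0.887, so its direction depends on the setting. The share of gene pairs with a peak was 28.8% with the other list, 14.5% with the stronger peaks, 16.0% and 34.7% with windows of 250 and 1000 bp, 31.7% with gaps of at most 500 bp, 22.2% for summits between the TSSs, and 23.8 to 24.8% with 1 replicate left out. Summits lay between the TSSs in 81.4% of the stronger peaks and in 66.3% with the window at 1000 bp. Genes of divergent pairs had a peak in 36.7%, 18.2%, 26.8% and 38.0% with the other list, the stronger peaks, and windows of 250 and 1000 bp, and in 28.9 to 33.2% with 1 replicate left out. Divergent-promoter peaks in both replicates made up 53.6% with reciprocal overlap of 50%, 65.7% with summits within 100 bp, 61.9% with the other list and 97.5% with the ranked lists. Of 140 ratios of word shares between divergent and single-gene promoters under alternatives, over 14 words, 17 lay on the other side of 1 from the main value, and they concerned 6 words: the GGAA, GGAT and CCGGAA words, Ohler 6 and both E-box words. The DREF ratio stayed between 2.33 and 4.30 and the GAGA ratio between 0.348 and 0.536. With flanks at 300 bp in place of 500 bp, the summit share over the flank share was 3.75 in place of 12 for DREF, 1.82 in place of 2.41 for BEAF-32 and 0.976 in place of 0.752 for GAGAG. Limiting summits to those between the TSSs was not run for their position or for single genes. No paired analysis was possible because both samples belong to 1 group. Depth is unknown, so a peak missing from a replicate's list does not show that the site was unbound there.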

Other observations

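Several divergent gene pairs held more than 1 peak, in some of them at different TSSs of the same genes. There were 27 gene pairs with 2 peaks and 1 pair, Vha100-2 and Vti1b, with 3. Vha100-2 encodes a subunit of the vacuolar proton pump and Vti1b a membrane fusion protein of the SNARE family, and their peaks had signals of 641, 175 and 125. In the 27 pairs the summits were a median of 203 bp apart (199 to 1892 bp), and in 19 of them they were within 20 bp of 200 bp apart. The weaker peak of a pair had a median signal of 36.3 (12.1 to 329), and 11 of these weaker peaks had no summit within 100 bp in either replicate's ranked list. Of 23 divergent-promoter peaks with a signal under 50, 17 were in gene pairs with more than 1 peak. At Acbp1 and Piezo, the gene of a mechanically gated ion channel, both peaks were strong, with 522 and 329. At tty and fliI the replicates differed in which summit their ranked list held: the peak of signal 432 had 245 in replicate 1 and none in replicate 2, and the peak of signal 268 had 209 in replicate 2 and none in replicate 1. Across the divergent-promoter peaks, 13 had no summit within 100 bp in either ranked list, and 8 shared their interval with another divergent-promoter peak.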
